A study of Lactuca sativa with 36 samples.

Results

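The genes described here are 150 genes of Italian lettuce, the loose-leaf vegetable Lactuca sativa L. var. ramose Hort., whose mean log2 level was higher in roots on day 1 and day 5 of CdCl2 than on day 0, with and without melatonin, and whose level on day 5 lay close to that on day 1. They were chosen from the measured values. Isoform values in FPKM (fragments mapped to a transcript, scaled to its length and to the reads of the library) were summed for each gene and taken as log2(FPKM + 1), and the mean of each group of libraries was formed. A gene had to reach 1 FPKM in at least 3 root libraries, which 17227 of the 19584 genes listed did. It then had to lie above day 0 on both later days in both treatments, which 3096 genes did, with day 1 and day 5 within 0.7 of each other in each treatment, which left 2647 genes. The smallest of the 4 differences from day 0 is the score of a gene, and the 150 genes with the largest scores were taken. All 4 differences were therefore used in the choice, and they are given below as a description with no test. Tests were made on the leaves, which the choice did not use. The treatments were also compared within a day, where the root libraries are those that chose the genes.

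The 36 RNA-seq libraries fall into 12 groups with n = 3 libraries each, from roots (R) and leaves (L) of seedlings that all received 50 μmol/L CdCl2, either alone (Cd) or with 1 μmol/L melatonin in the nutrient solution beforehand (CdM). The last digit of a group name is the day, so that RCdM5 is root with melatonin on day 5. All seedlings had been grown for 20 days before CdCl2 according to the labels, except that the labels of RCdM1 replicate 2 and LCdM1 replicate 2 give 21 days. The groups are RCd0, RCd1, RCd5, RCdM0, RCdM1 and RCdM5 and the same 6 for leaves. Day 0 is the beginning of the CdCl2 treatment, and no group was kept without CdCl2 until day 1 or day 5, so that a difference between days and one of plant age or harvest cannot be told apart. The labels call the 3 libraries of a group biological repeats and do not say how many seedlings went into each. The values are FPKM and hold no counts, so the depth behind a value is unknown here and the spread between libraries stands for the precision. In whole roots and leaves, fewer cells of a type and less RNA per cell cannot be told apart.

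Cadmium is not a nutrient, and it enters root cells through carriers and channels that serve iron, zinc, manganese and calcium. Inside the root it is bound by thiol peptides, moved into vacuoles, held in the cell wall or loaded into the xylem, and it disturbs the redox balance and displaces metals from proteins. Roots exposed to it commonly turn on genes for metal carriers, thiol chemistry and the transcription factors above them. Melatonin is an indoleamine made from tryptophan that plants contain and that is studied as an antioxidant and as a signal under metal stress. Genes of the reference genome carry the identifiers of the files here, because none of the 150 identifiers was matched in the RefSeq table at hand, and neither gene symbols nor sequences are given.

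Tissue labels were checked with 44 genes listed by the study under photosynthesis and its antenna proteins. Their summed level was 780 to 3161 FPKM in the 18 root libraries and 155476 to 335540 FPKM in the 18 leaf libraries. In roots the sum was 1072 to 1257 in RCd0 and 2080 to 3161 in RCdM0, against 780 to 903 in RCd1, 834 to 2470 in RCd5, 950 to 1218 in RCdM1 and 826 to 1844 in RCdM5, and 33 to 41 of the 44 genes reached 1 FPKM in a root library. The highest value of RCd5 was that of replicate 3. None of the 150 genes is among these 44, and the part of green tissue in their levels was not tested. Libraries of a group correlated least in RCd5 (Pearson r across genes 0.939 to 0.963) and RCdM5 (0.937 to 0.961).

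In roots the average level of the 150 genes stood apart between day 0 and the later days in every library. The mean of log2(FPKM + 1) over the 150 genes was 3.99 to 4.37 in the 6 root libraries of day 0 and 5.12 to 5.63 in the 12 root libraries of day 1 and day 5. The mean over all 17227 genes was 4.19 to 4.32 in the root libraries. By group the mean over the 150 genes was 4.17 in RCd0, 5.52 in RCd1 and 5.36 in RCd5, and 4.32 in RCdM0, 5.23 in RCdM1 and 5.40 in RCdM5. The choice of genes makes the groups stand apart in this way. In leaves, which played no part in the choice, the mean over the same genes was 4.16 to 4.85 and the 3 days overlapped.

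**Figure D1:**
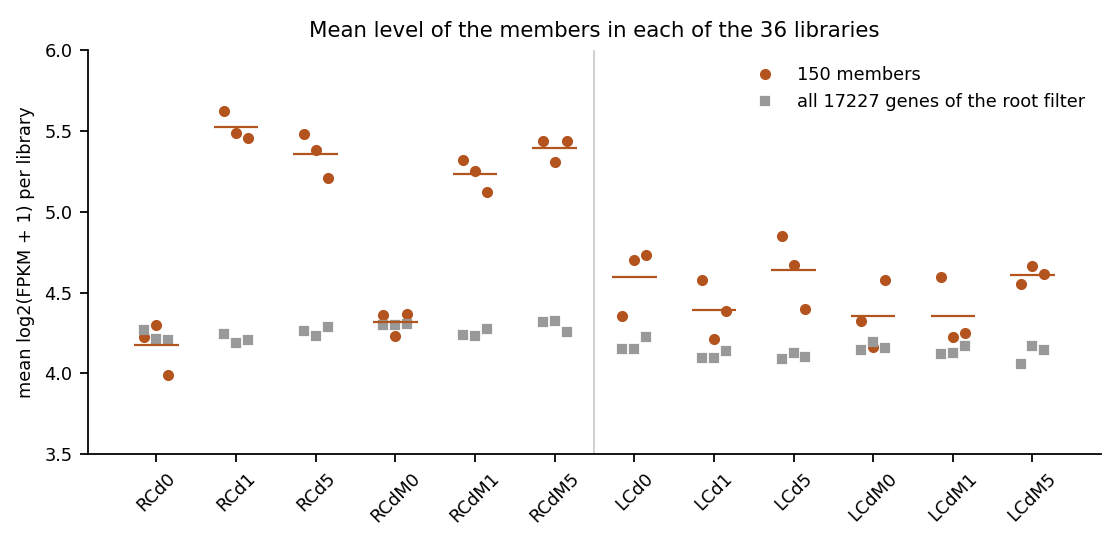
Mean of log2(FPKM + 1) over the 150 genes and over all 17227 genes in each of the 36 libraries, by group. The 150 genes lay at 3.99 to 4.37 in the root libraries of day 0 and at 5.12 to 5.63 in those of day 1 and day 5, while their leaf libraries ranged from 4.16 to 4.85 on all days.

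The differences from day 0 were largest under Cd alone on day 1. Their median over the 150 genes was 1.31 on the log2(FPKM + 1) scale for RCd1, 1.07 for RCd5, 0.83 for RCdM1 and 1.04 for RCdM5, beside 0.00, 0.01, -0.03 and -0.02 over all 17227 genes. Over the 2647 genes that met the conditions before the ranking, the medians were 0.38, 0.31, 0.23 and 0.29. The order of the groups was the same there, so it is not particular to the 150 genes. A difference of at least 2 was reached by 16 genes in RCd1 and 11 in RCd5, by 0 in RCdM1 and by 4 in RCdM5. Under Cd alone 104 of the 150 genes were higher on day 1 than on day 5, and with melatonin 103 were higher on day 5 than on day 1. Of these, 72 genes did both. The difference on day 1 was larger under Cd alone than with melatonin in 130 genes (median of the difference between treatments 0.41), and on day 5 in 82 genes (median 0.07). Means of untransformed FPKM were above day 0 in all 4 comparisons for every gene except Lsat_1_v5_gn_4_143680, with 20.3 FPKM in RCdM1 and 22.6 in RCdM0. These are descriptions, since the same differences chose the genes. For the counts of genes in this paragraph, the shares of other genes were not computed.

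**Figure D2:**
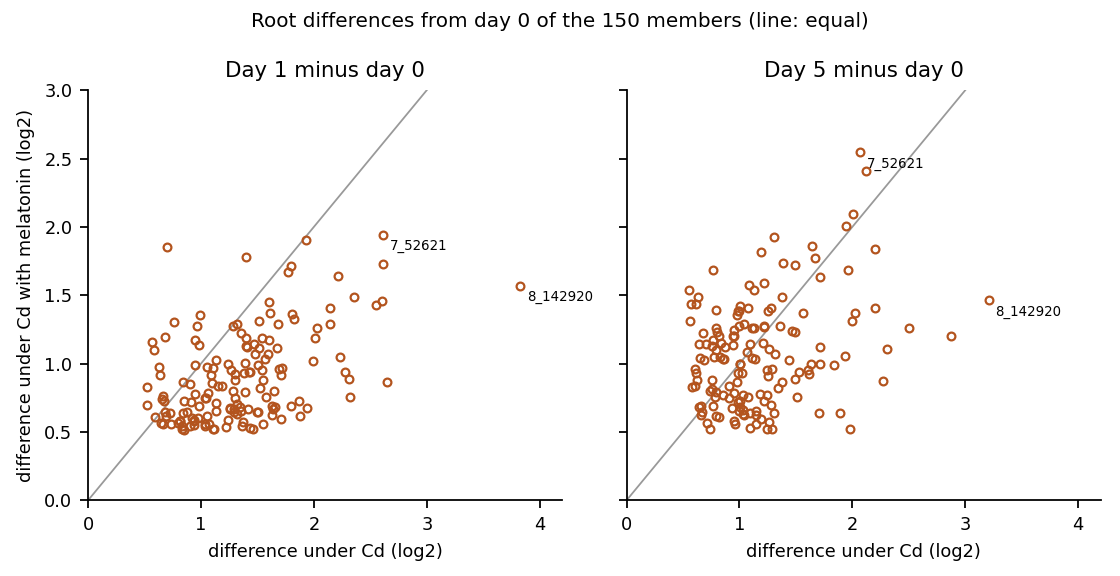
Difference from day 0 on the log2(FPKM + 1) scale for each of the 150 genes, under Cd alone on the x axis and with melatonin on the y axis, for day 1 and day 5. On day 1, 130 of the 150 points lie below the diagonal line of equal difference, and on day 5, 82 points do.

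The separation between libraries varied among the genes. Every later library lay above every day 0 library for 116 of the 150 genes in RCd1 (14.5% of all genes tested), 109 in RCd5 (11.6%), 89 in RCdM1 (7.29%) and 98 in RCdM5 (11.2%). In all 4 comparisons this was so for 66 of the 150 genes, beside 1.22% of all genes. The genes were chosen by these same differences, which favours such separation. For 15 genes the libraries overlapped in each of the 4 comparisons. The median SD between the 3 libraries of a root group was 0.43 on the log2 scale for the 150 genes and 0.28 for all genes. The genes just inside the limit were Lsat_1_v5_gn_1_52881, Lsat_1_v5_gn_9_33520 and Lsat_1_v5_gn_8_164580, each with a score of 0.52. Those just outside it were Lsat_1_v5_gn_4_81560, Lsat_1_v5_gn_4_150960 and Lsat_1_v5_gn_5_187421, also at 0.52 when rounded, so that the end of the list marks no gap. Scores ran from 0.52 to 1.94 with a median of 0.69, and 27 genes had all 4 differences at 1 or more.

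The largest score belonged to Lsat_1_v5_gn_7_52621, for which the tables of the study list no term. It measured 56.0, 54.9 and 35.0 FPKM in the 3 RCd0 libraries, 326, 287 and 277 in RCd1 and 278, 214 and 140.3 in RCd5. With melatonin it measured 54.4, 42.1 and 21.3 FPKM in RCdM0, 179.8, 176 and 93.8 in RCdM1 and 241, 144 and 304 in RCdM5. No library of day 1 or day 5 overlapped with day 0 in either treatment. Its differences from day 0 were 2.61, 2.07, 1.94 and 2.55 in RCd1, RCd5, RCdM1 and RCdM5. In leaves it reached at most 4.60 FPKM in any library.

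Lsat_1_v5_gn_5_125660, listed as an integral component of membrane, came next. It measured 6.99, 3.74 and 6.17 FPKM in RCd0, 44.8, 36.9 and 35.0 in RCd1 and 32.9, 31.0 and 15.3 in RCd5, and 4.22, 2.61 and 5.20 in RCdM0, 24.2, 19.7 and 7.14 in RCdM1 and 21.0, 15.6 and 23.9 in RCdM5. The later libraries lay above day 0 throughout, with RCdM1 replicate 3 the nearest to day 0. Lsat_1_v5_gn_8_5661, with no term, stood at 36.5 ± 7.49 FPKM (SD, n = 3) in RCd0, 127 ± 27.2 in RCd1 and 120.0 ± 2.67 in RCd5, and at 46.8 ± 11.8 in RCdM0, 154 ± 48.2 in RCdM1 and 145 ± 18.7 in RCdM5. Its 4 differences from day 0 lay within a narrow range, from 1.64 to 1.77. The new gene Novelgene1328 had the next score after Lsat_1_v5_gn_5_125660 although its libraries overlapped. It was listed at 3.6, 0 and 0 FPKM in RCd0, 10.8, 3.75 and 2.47 in RCd1 and 15.7, 0 and 21.4 in RCd5, with a 0 on day 5. An exact 0 in these estimated values can be a failed estimate. Novelgene0894, also among the 12 largest scores, was listed at 0, 15.8 and 4.47 FPKM in RCd0 and 29.4, 5.69 and 11.7 in RCd1 and overlapped in the same way. Lsat_1_v5_gn_3_6741 stood at 13.8 ± 7.67 FPKM in RCd0, 51.9 ± 13.3 in RCd1 and 36.1 ± 13.8 in RCd5, where replicate 3 reached no more than the highest library of day 0.

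Lsat_1_v5_gn_8_142920 showed the largest single difference of the 150 genes, 3.83 in RCd1. It measured 251, 308 and 60.6 FPKM in RCd0, 2940.1, 1998 and 2345 in RCd1 and 1966, 1383 and 1384 in RCd5. With melatonin it was already at 633, 657 and 1298 FPKM in RCdM0 and stood at 2335, 2562 and 2372 in RCdM1 and 2047, 2001 and 2786 in RCdM5. The RCdM0 libraries lay above all RCd0 libraries, and the later libraries lay above day 0 in both treatments. In leaves the gene was listed at 318 to 2769.9 FPKM with no order among the days.

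**Figure D3:**
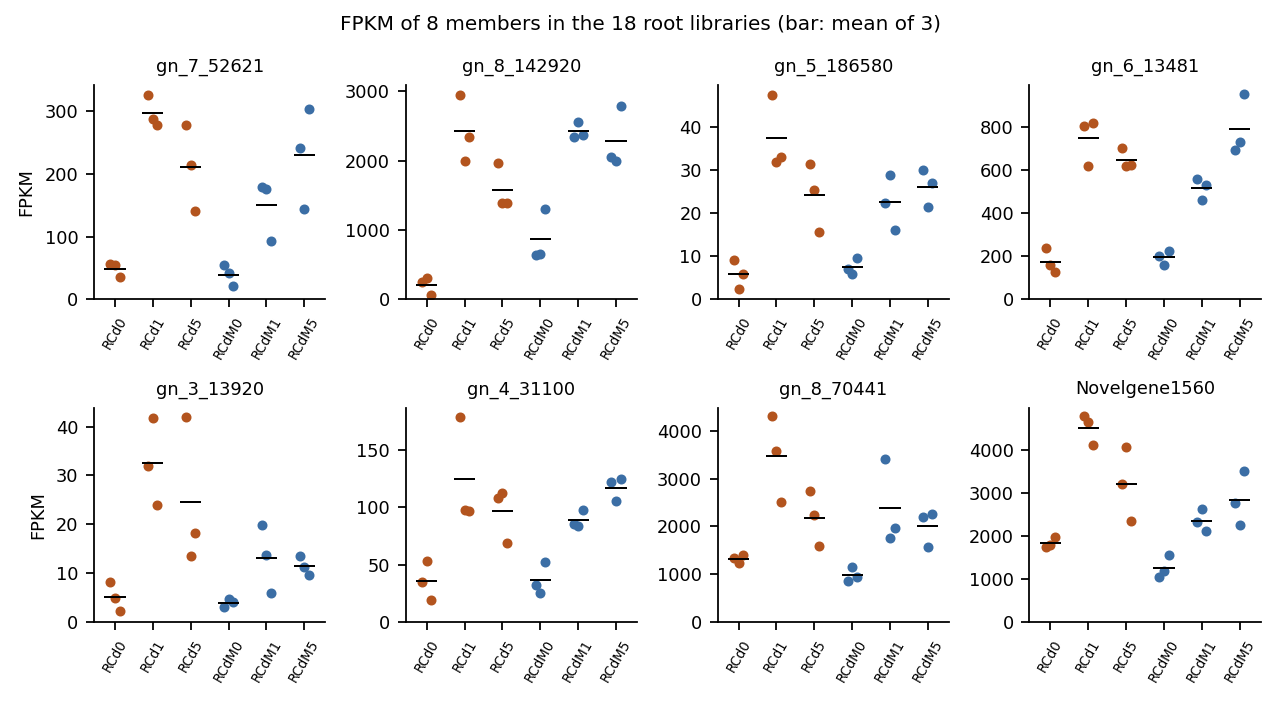
FPKM of 8 of the 150 genes in each of the 18 root libraries, by group, on a linear axis from 0 for each gene, with a bar at the mean of the 3 libraries of a group. In each of the 8 genes the libraries of day 1 and day 5 lie above those of day 0 in both treatments. The 8 genes are a selection, and the libraries stood apart in this way for 66 of the 150 genes.

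A handful of genes took a large part of the summed level. The mean FPKM over the root groups of day 1 and day 5 ran from 1.59 to 3228 with a median of 39.6, and the 5 highest genes took 44.0% of the sum over the 150 genes. Novelgene1560 was the highest. It measured 1748, 1788 and 1971 FPKM in RCd0, 4794, 4640.1 and 4125 in RCd1 and 3201, 4059 and 2335 in RCd5, and 1043, 1169 and 1551 in RCdM0, 2314, 2626 and 2121 in RCdM1 and 2754, 2244 and 3518 in RCdM5. The groups of later days lay above day 0 in both treatments, and RCdM1 lay below RCd1. In leaves it was listed at 85.7 to 389 FPKM. Lsat_1_v5_gn_1_77780 went the other way between tissues, with 309.8 to 769 FPKM in roots on day 0, 929.6 to 1382 in roots on the later days and 4273 to 15264 in leaves. Novelgene3052 stood at 444 ± 75.2 FPKM in RCd0, 705 ± 154 in RCd1 and 855 ± 63.7 in RCd5, and at 803 ± 94.8 in RCdM0, 1469 ± 812 in RCdM1 and 1204 ± 152 in RCdM5. Its RCdM1 libraries spread widely, with replicate 3 at 2397 FPKM.

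Of the 150 genes 54 (36%) carry a term in the functional tables of the study, beside 16.2% of all genes tested. These tables hold genes that the study called between groups of the same libraries, so that having a term is tied to having differed and the terms are no independent evidence. Of 37 lists of terms, 35 had a tested gene in the complete cells of these tables, and 11 of the 35 held at least 1 of the 150 genes while 24 held none. The other 2 lists, iron ion binding and metal ion binding, stand in cells that are cut short, where they name members, and with cut cells 14 lists held a member. The 20 genes that fall in a list are 13.3% of the 150, and 2.64% of all genes tested fall in a list. The 150 genes are 0.871% of all genes tested, while 20 of the 455 tested genes in a list are among the 150. The lists hold genes called in these libraries, so counts above 0.871% come in part from how the lists were built. At 0.871% the longest list, of 47 genes, would hold fewer than 1 member, and nothing is read from a list with none.

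Transport across membranes was the list with the most of them. It held 7 of the 150 genes among its 16 genes tested, and its medians over the 16 genes were 1.42, 1.03, 1.04 and 1.33 in RCd1, RCd5, RCdM1 and RCdM5. Lsat_1_v5_gn_6_13481 is listed as a metal ion transmembrane transporter, the kind of protein that carries ions of iron, zinc or other metals across a membrane. It measured 238, 158 and 126 FPKM in RCd0, 807, 623 and 822 in RCd1 and 703, 623 and 624 in RCd5, and 203, 160.1 and 225 in RCdM0, 561, 461 and 534 in RCdM1 and 693, 729.9 and 954 in RCdM5. The groups of later days stood clear of day 0 in both treatments. Of the 4 tested genes with this term it is the one among the 150, although all 4 were above day 0 in each comparison. The term is outside the 37 lists and was taken up after its member was seen. Lsat_1_v5_gn_8_70441 is listed under copper ion transport, which covers proteins that move copper within the cell or over a membrane, and also under the thylakoid. It measured 1341, 1227 and 1409 FPKM in RCd0, 4317, 3592 and 2508 in RCd1 and 2737, 2237 and 1579.9 in RCd5, and 858, 1139.9 and 946 in RCdM0, 3418, 1754 and 1967 in RCdM1 and 2189.9, 1567 and 2266 in RCdM5. It was among the most abundant of the 150 genes on the later days, and RCd5 replicate 3 came closest to day 0.

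Lsat_1_v5_gn_3_119200, listed under potassium ion transport, stood at 87.8 ± 14.3 FPKM (SD, n = 3) in RCd0, 237 ± 14.7 in RCd1, 189.7 ± 21.0 in RCd5, 83.1 ± 11.9 in RCdM0, 160 ± 15.8 in RCdM1 and 204 ± 54.4 in RCdM5. All later libraries lay above day 0. Lsat_1_v5_gn_9_99061, listed under transmembrane transport and calcium ion binding, stood at 11.3 ± 3.45 FPKM in RCd0 and 23.4 ± 6.24 in RCd1 and was far higher in leaves, at 212 to 552 FPKM. Lsat_1_v5_gn_9_90181, a gene of 58 isoforms listed as a transporter and a GTPase, stood at 30.0 ± 14.7 FPKM in RCd0, 83.4 ± 27.6 in RCd1 and 80.2 ± 10.2 in RCd5, and RCdM0 overlapped with RCdM5. The drug transmembrane transport genes, a class of carriers that export organic compounds, gave 2 of their 3 tested genes, Lsat_1_v5_gn_6_58181 and Lsat_1_v5_gn_8_41720. That term is outside the 37 lists and was taken up after its members were seen. The broader list of metal ion transport gave 2 of 34 genes, or 4 with gene names from tables that are cut short, and its medians were 0.15, 0.30, 0.05 and 0.02. The iron ion transport list gave 0 of 8.

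Transcription factors, proteins that bind DNA and set the transcription of other genes, gave 5 of 13 tested genes in their list, or 7 with the cut tables. The medians of the 13 genes were 1.32, 0.31, 1.11 and 1.00 in RCd1, RCd5, RCdM1 and RCdM5. Lsat_1_v5_gn_5_186580 was low in leaves. In roots it measured 9.07, 2.46 and 5.88 FPKM in RCd0, 47.3, 31.8 and 33.1 in RCd1 and 31.4, 25.3 and 15.7 in RCd5, and 6.99, 5.83 and 9.60 in RCdM0, 22.4, 28.8 and 16.2 in RCdM1 and 29.9, 21.4 and 26.8 in RCdM5. Later libraries and day 0 did not overlap, and its highest leaf library held 1.06 FPKM. Lsat_1_v5_gn_5_62060 stood at 49.7 ± 11.7 FPKM in RCd0, 173 ± 15.1 in RCd1 and 129 ± 46.1 in RCd5, and at 38.4 ± 8.68 in RCdM0, 99.2 ± 9.84 in RCdM1 and 149 ± 30.6 in RCdM5, with all later libraries above day 0. Lsat_1_v5_gn_9_60201 stood at 51.0 ± 7.74 FPKM in RCd0, 148 ± 29.4 in RCd1 and 99.3 ± 13.4 in RCd5 and likewise did not overlap with day 0. Lsat_1_v5_gn_5_103200 was low and scattered, with 15, 3.04 and 8.51 FPKM in RCd5 against 3.23, 3.90 and 2.65 in RCd0. Lsat_1_v5_gn_9_39381 measured 245, 259 and 249.5 FPKM in RCd0, 614, 707 and 666 in RCd1 and 563, 577 and 247 in RCd5, where replicate 3 stood within the range of day 0.

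Among the redox lists, cell redox homeostasis held members in complete cells. This list, which covers thioredoxin-like and related proteins that keep thiols reduced, gave 2 of 11 genes (18.2%), and both were low in roots and carried by single libraries. Lsat_1_v5_gn_9_41160 was listed at 2.41, 3.07 and 3.24 FPKM in RCd0, 3.49, 6.26 and 48.4 in RCd1 and 2.59, 23.7 and 4.18 in RCd5, and 1 library stood far above the others in RCd1 and in RCd5. Lsat_1_v5_gn_5_164920 was listed at 1.69, 2.22 and 1.28 FPKM in RCd0 and 3.65, 1.64 and 10.4 in RCd1, with the same pattern. Lsat_1_v5_gn_5_71661, an iron ion binding oxidoreductase, was steadier. It stood at 52.6 ± 10.8 FPKM in RCd0, 164 ± 4.92 in RCd1 and 129.6 ± 37.7 in RCd5, and at 46.2 ± 9.03 in RCdM0, 80.9 ± 12.6 in RCdM1 and 102 ± 27.2 in RCdM5, with no overlap with day 0. The lists of peroxidase activity and response to oxidative stress, which hold the enzymes that reduce hydrogen peroxide, gave 0 of 18 and 0 of 17 genes. The 18 peroxidase genes had medians of -1.53, -0.93, -0.74 and -0.03. The glutathione metabolism list gave 0 of 6, and the list of oxidation-reduction processes 0 of 14, or 2 members with cut cells.

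Chlorophyllase is the enzyme that removes the phytol tail from chlorophyll. Its term is outside the 37 lists and was taken up after its members were seen. It gave 3 of 11 tested genes. Of the 11, 7 were above day 0 in all 4 comparisons, which the choice itself required of the 3 members. The term holds genes that the study called in these same libraries, so these counts are no independent evidence. The medians of the 11 genes were 0.58, 0.87, 0.34 and 0.11 in RCd1, RCd5, RCdM1 and RCdM5. Lsat_1_v5_gn_4_31100 measured 34.5, 53.5 and 19.3 FPKM in RCd0, 179, 97.3 and 97.2 in RCd1 and 108, 113 and 69.2 in RCd5, and 32.2, 25.2 and 51.8 in RCdM0, 85.1, 83.6 and 97.9 in RCdM1 and 122, 105 and 125 in RCdM5. Its later libraries lay above day 0 in both treatments. Lsat_1_v5_gn_1_64940 stood at 11.6 ± 5.06 FPKM in RCd0 and 32.1 ± 13.3 in RCd1 and was listed at no more than 0.435 FPKM in any leaf library. Lsat_1_v5_gn_4_31761 was higher in leaves than in roots, and its melatonin libraries of day 0 overlapped with the later days. The wider term of tetrapyrrole metabolism, the chemistry of chlorophyll and heme, was taken up in the same way and gave 6 of 19 genes. Of these Lsat_1_v5_gn_1_11021 had the largest score, at 22.0 ± 11.9 FPKM in RCd0, 98.1 ± 28.6 in RCd1 and 68.1 ± 23.2 in RCd5, and 14.5 ± 7.47 in RCdM0, 47.5 ± 20.9 in RCdM1 and 49.5 ± 15.3 in RCdM5. No later library of this gene overlapped with day 0.

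The lists of secondary metabolism gave single genes and that of plant-pathogen interaction a pair. Lsat_1_v5_gn_3_13920 is listed under phenylpropanoid biosynthesis, the pathway from phenylalanine to lignin and flavonoids, and was the 1 gene of 47 on that list. It measured 8.23, 4.91 and 2.21 FPKM in RCd0, 32.0, 41.8 and 23.9 in RCd1 and 41.9, 13.4 and 18.2 in RCd5, and 2.96, 4.56 and 3.95 in RCdM0, 19.8, 13.7 and 5.89 in RCdM1 and 13.4, 11.3 and 9.62 in RCdM5. The later libraries stood above day 0, and no leaf library held more than 0.233 FPKM. Lsat_1_v5_gn_9_84461 under phenylalanine metabolism (1 of 32) stood at 206 ± 62.8 FPKM in RCd0 and 628 ± 122 in RCd5, and Lsat_1_v5_gn_7_89821 under terpenoid backbone biosynthesis (1 of 14) at 1.70 ± 0.540 and 4.89 ± 0.582. Both had later libraries above day 0 throughout. The plant-pathogen interaction list gave 2 of 34 genes. Lsat_1_v5_gn_9_7881, also under calcium ion binding and extracellular matrix, stood at 19.2 ± 7.07 FPKM in RCd0 and 56.7 ± 8.32 in RCd1, with no overlap. Lsat_1_v5_gn_9_103760 was low, at 0.841 ± 0.482 FPKM in RCd0 and 3.64 ± 1.48 in RCd1, and its melatonin libraries overlapped. Lsat_1_v5_gn_8_133781, a transaminase, which moves amino groups between amino acids and keto acids, stood at 11.8 ± 4.92 FPKM in RCd0 and 48.3 ± 6.18 in RCd1.

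New genes, which the study placed outside the reference annotation, made up 19 of the 150 (12.7%, beside 11.5% of all genes tested). Novelgene0526 is described by the study as a probable catalytic subunit of cellulose synthase, the enzyme complex that spins cellulose into the wall. It stood at 5.29 ± 2.65 FPKM in RCd0, 10.3 ± 1.86 in RCd1 and 8.38 ± 1.58 in RCd5, and its libraries of RCd0 and RCd5 overlapped. Novelgene1349 is described as a variant of the ubiquitin-conjugating enzyme E2, a protein that helps attach ubiquitin chains, and stood at 98.1 ± 16.9 FPKM in RCd0, 160.4 ± 66.6 in RCd1 and 161 ± 25.3 in RCd5. Novelgene0139 and Novelgene0356 match protein families of unknown function. Novelgene0356 was higher in leaves, at 374 ± 94.4 FPKM in LCd0 beside 19.5 ± 4.89 in RCd0.

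In other features the 150 genes were close to all genes tested or moderately different. The median gene had 2 isoforms in both, and a single isoform was listed for 28% of the 150 and 36.5% of all. Their median level was 32.6 FPKM in roots and 25.2 in leaves, against 17.2 and 16.2 for all genes. They were higher in roots than in leaves in 87 cases (58.0%, beside 57.2% of all genes). On day 0 this was so for 66 of the 150 and on day 5 for 94. The choice of genes with higher root levels after day 0 favours this shift. At least 2 log2 units separated the tissues in 36 genes with the higher level in roots and in 20 with the higher level in leaves. For these counts and those by day, the shares of all genes were not computed. Among the 108 genes with more than 1 isoform, the most abundant isoform differed between day 0 and day 5 in both treatments for 5. In Lsat_1_v5_gn_1_116100, an isoform added by the study was listed at 0 in all 6 day 0 libraries and at 13.1 to 43.9 FPKM in 5 of the 12 later ones, with 0 in the other 7, while the day 0 isoform stayed at 3.51 to 6.27 FPKM. The differences of Lsat_1_v5_gn_4_151821, Lsat_1_v5_gn_2_82261 and Lsat_1_v5_gn_8_25661 likewise rested on an isoform listed at 0 in some libraries of the same group. For such genes the gene sum follows an estimate that came and went between replicates.

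Melatonin on day 1 was set against Cd alone in roots with limma on log2(FPKM + 1), adjusted over 17227 genes by Benjamini-Hochberg. The values of RCd1 and RCdM1 also entered the choice of the genes through their differences from day 0, so this comparison is not independent of the choice and describes these libraries. Between RCd1 and RCdM1, 13 of the 150 genes (8.67%) passed an adjusted p of 0.05, beside 6.5% of all genes tested. Of the 13, 12 were lower with melatonin (8%, beside 2.43% of all genes) and 1 was higher (0.667%, beside 4.07%). The median difference was -0.33 over the 150 genes and -0.04 over all genes, and 108 of the 150 lay below 0. All RCdM1 libraries lay below all RCd1 libraries for 51 genes (19.9% of all genes) and above them for 8 (16% of all genes). With libraries scaled by their median ratio 10 genes passed, 2 higher and 8 lower. That is 6.67% of the 150 genes, near the 6.56% of all genes.

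Of the genes that passed, Lsat_1_v5_gn_4_74261 fell most, from 113, 130.1 and 189 FPKM in RCd1 to 67.3, 59.6 and 44.2 in RCdM1 (log2 difference -1.31, SE 0.37, limma adjusted p = 0.0481). Lsat_1_v5_gn_2_72320 fell from 97.5, 128 and 116 FPKM to 60.5, 51.2 and 33.2 (log2 difference -1.25, SE 0.34, limma adjusted p = 0.0439). Neither carries a term. The transcription factor Lsat_1_v5_gn_9_39381 fell from 614, 707 and 666 FPKM to 302, 334 and 277 (log2 difference -1.12, SE 0.25, limma adjusted p = 0.0337), and no libraries of the treatments overlapped. The metal ion transport gene Lsat_1_v5_gn_6_5920 fell from 28.6, 21.9 and 17.6 FPKM to 13.8, 10.1 and 7.04 (log2 difference -1.09, SE 0.30, limma adjusted p = 0.0457). The oxidoreductase Lsat_1_v5_gn_5_71661 and the most abundant gene, Novelgene1560, also fell, with log2 differences of -1.02 and -0.94 (limma adjusted p = 0.0352 and 0.0333). Lsat_1_v5_gn_5_128881, listed as an ionotropic glutamate receptor, a ligand-gated cation channel, fell as well (log2 difference -0.82, limma adjusted p = 0.0488). Of the genes that passed, Lsat_1_v5_gn_1_52881 was the 1 that rose with melatonin, from 5.17, 7.47 and 4.41 FPKM to 11.4, 12.3 and 13.4 (log2 difference 1.02, SE 0.28, limma adjusted p = 0.046). The gene with the largest score, Lsat_1_v5_gn_7_52621, differed by -1.04 with no overlap and did not pass (limma adjusted p = 0.0903). The adjusted p-values lay close to the threshold. The number of genes that passed was 0 without RCd1 replicate 2, RCd1 replicate 3, RCdM1 replicate 2 or RCdM1 replicate 3, 1 without RCd1 replicate 1 and 20 without RCdM1 replicate 1. The share of all genes that passed moved with it, from 0.0116% to 10.7%. None of the 150 genes passed with the Q30 percentage of each library as a covariate (0.0058% of all genes). Without replicate 3 of RCd5 and RCdM5, 26 (17.3%, beside 13.2% of all genes) passed. The median difference stayed between -0.38 and -0.29 under each of these settings.

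On the other days melatonin was not followed by a call in roots. The same libraries chose the genes here too. On day 0, 0 of the 150 genes passed between RCd0 and RCdM0 in limma (0.244% of all genes did), while 29 had an unadjusted p under 0.05, 22 of them higher with melatonin, beside 21% of all genes. The smallest adjusted p in limma was 0.0515, for Lsat_1_v5_gn_8_142920 with a log2 difference of 2.27 (SE 0.46). Without replicate 3 of RCd5 and RCdM5, whose spread enters the shared error, 10 genes (6.67%) passed on day 0, beside 5.08% of all genes. On day 5, 0 of the 150 genes passed between RCd5 and RCdM5 in limma (0% of all genes), and 2 had an unadjusted p under 0.05, Lsat_1_v5_gn_3_46821 and Lsat_1_v5_gn_8_164580, beside 4.1% of all genes. Lsat_1_v5_gn_3_46821 was listed at 0 in 7 of the 9 root libraries of Cd alone. The median difference on day 5 was 0.04.

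**Figure D4:**
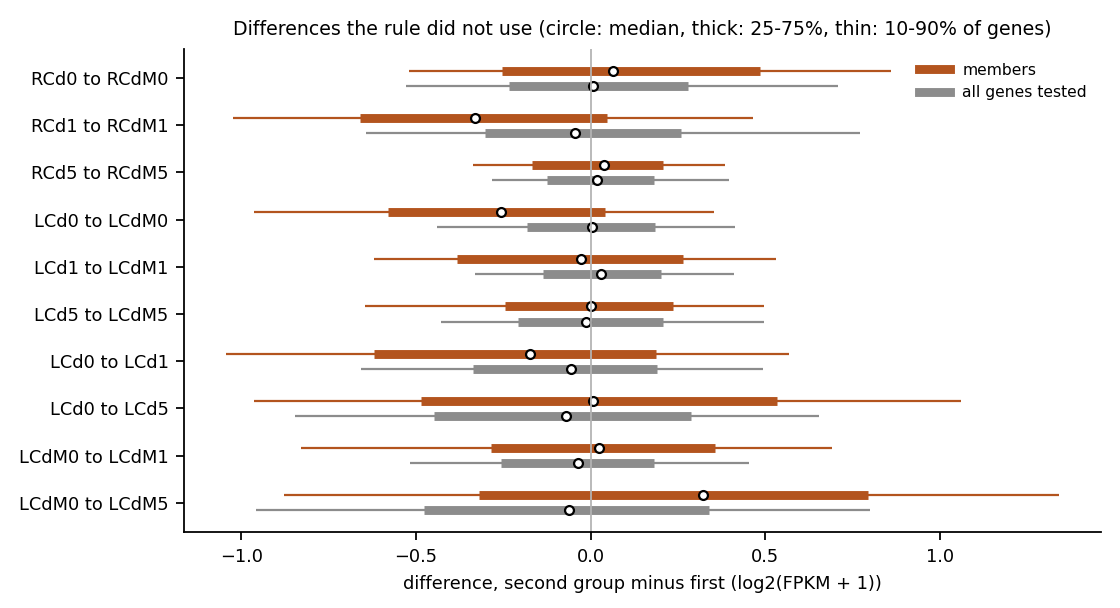
Differences between groups on the log2(FPKM + 1) scale in the 10 comparisons whose differences did not choose the genes (the root libraries entered the choice in other contrasts), for the 150 genes (137 in leaves) and for all genes tested, with the median and the ranges of quantiles drawn. The median of the 150 genes was -0.33 for melatonin in roots on day 1 and 0.32 for leaves with melatonin from day 0 to day 5, and it lay between -0.26 and 0.06 in the other comparisons.

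In leaves 137 of the 150 genes reached 1 FPKM in at least 3 libraries and were tested, in a fit of 16800 genes. The 13 that did not include Lsat_1_v5_gn_5_186580, Lsat_1_v5_gn_3_13920, Lsat_1_v5_gn_1_64940 and Lsat_1_v5_gn_7_89821. Under Cd alone 5 of the 137 genes (3.65%) passed from LCd0 to LCd1, beside 2.95% of all genes. Of these, 3 were higher (0.911% of all genes) and 2 lower (2.04%). Lsat_1_v5_gn_9_90181 rose from 52.9, 91.6 and 52.3 FPKM to 219.5, 192 and 137 (log2 difference 1.49, SE 0.38, limma adjusted p = 0.049). Lsat_1_v5_gn_9_33520, listed under pyridoxal phosphate binding, fell from 77.3, 92.3 and 91.6 FPKM to 29.0, 21.8 and 18.0 (log2 difference -1.90, SE 0.40, limma adjusted p = 0.0243). Novelgene2087 and Novelgene3152 also rose, by 1.11 and 0.96, and Lsat_1_v5_gn_1_2461 fell by 0.88. Leaving out any of the 6 libraries compared left 0 to 2 genes, so that this count rests on single libraries. The count was 0 without LCd0 replicate 1, LCd0 replicate 2, LCd0 replicate 3 or LCd1 replicate 3. It was 2 without LCd1 replicate 1 or LCd1 replicate 2. The share of all genes that passed also fell, to between 0.888% and 1.83%. With melatonin 1 of the 137 genes (0.730%) passed from LCdM0 to LCdM1, beside 0.256% of all genes. It was Lsat_1_v5_gn_5_125660, which fell from 4.25, 2.36 and 3.52 FPKM to 1.36, 0 and 0 with 2 libraries listed at 0 (log2 difference -1.69, limma adjusted p = 0.027). No gene passed without LCdM0 replicate 1, LCdM0 replicate 2, LCdM1 replicate 2 or LCdM1 replicate 3, or with a pseudocount of 0.1.

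By day 5 under Cd alone 19 of the 137 genes (13.9%) had passed in leaves, beside 16.6% of all genes. Of these, 9 were higher (5.48% of all genes) and 10 lower (11.1%), and the median difference was 0.01 over the 137 genes and -0.07 over all. Novelgene2087 rose from 118, 142 and 135 FPKM in LCd0 to 309, 365 and 465 in LCd5 (log2 difference 1.5, SE 0.27, limma adjusted p = 0.00272). Lsat_1_v5_gn_8_23120 rose by 1.43, the transcription factor Lsat_1_v5_gn_7_25320 by 1.34 and the plant-pathogen interaction gene Lsat_1_v5_gn_9_103760 by 1.28. Of the genes that passed, the metal ion transporter Lsat_1_v5_gn_6_13481 fell most, from 1437, 1472 and 1606 FPKM to 534, 321 and 302 (log2 difference -2.01, SE 0.54, limma adjusted p = 0.0199), while in roots all its later libraries lay above day 0. Lsat_1_v5_gn_1_65480, listed under vitamin B6 synthesis and as a glutaminase, fell by 1.28 and Lsat_1_v5_gn_1_11080 by 1.24. Lsat_1_v5_gn_5_125660 also fell, to a listed 0 in all 3 libraries of LCd5. The count was 8 without LCd0 replicate 1 (10.3% of all genes passed), 11 without LCd0 replicate 3 (12.1%) and 7 without LCd5 replicate 2 (8.98%). It was 10 when the compared groups were fitted alone (8.38% of all genes). With the Q30 percentage of each library as a covariate it was 0 (0.0595% of all genes).

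With melatonin 29 of the 137 genes (21.2%) passed in leaves from LCdM0 to LCdM5, beside 22.9% of all genes, 20 of them higher and 9 lower. The share that rose was 14.6%, beside 8.11% of all genes, and the share that fell was 6.57%, beside 14.8%. The median difference was 0.32 over the 137 genes and -0.06 over all. Lsat_1_v5_gn_8_74161, under lipid metabolism, rose from 0.341, 1.08 and 19.4 FPKM in LCdM0 to 88.2, 86.4 and 42.3 in LCdM5 (log2 difference 4.18, SE 0.80, limma adjusted p = 0.00219). LCdM0 spread over a wide range here, and LCd0 lay at 21.9, 19.8 and 22.7 FPKM. Lsat_1_v5_gn_8_142961 rose from 17.6, 15 and 8.83 FPKM to 99.7, 85.8 and 167 (log2 difference 2.99, SE 0.47, limma adjusted p = 0.000631). The transcription factor Lsat_1_v5_gn_5_62060 rose from 12.1, 20.7 and 19.4 FPKM to 82.4, 137 and 124 (log2 difference 2.65, SE 0.46, limma adjusted p = 0.00115), and LCd0 was higher than LCdM0 at 67.9, 69.2 and 94.8 FPKM. Lsat_1_v5_gn_2_106580 rose by 2.43. Of the genes that passed, those that fell most were Lsat_1_v5_gn_3_15361, from 36.4, 96.4 and 36.6 FPKM to 5.43, 13.0 and 9.53 (log2 difference -2.39, limma adjusted p = 0.00389), Lsat_1_v5_gn_5_125660, listed at 0 in all 3 libraries of LCdM5, Lsat_1_v5_gn_9_56980 (log2 difference -1.38) and Lsat_1_v5_gn_1_65480 (-1.34). The count was 0 with the Q30 percentage of each library as a covariate (0.0774% of all genes). With libraries scaled by their median ratio 31 genes passed (22.6%, beside 22.8% of all genes), 25 higher and 6 lower.

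The day 5 comparisons of the leaves have no library in common, and 13 genes passed in both, 7 higher and 6 lower, with 0 in opposite directions. These 13 are 68.4% of the 19 genes called under Cd alone and 44.8% of the 29 called with melatonin. Over all genes tested in leaves the shares were 67.6% and 49.1%, with 11.2% of all genes called in both in the same direction and 9.49% of the 137, so that the overlap was near that of all genes. The genes higher in both were Lsat_1_v5_gn_1_29461, Lsat_1_v5_gn_7_25320, Lsat_1_v5_gn_8_164580, Lsat_1_v5_gn_8_23120, Lsat_1_v5_gn_9_103760, Novelgene1560 and Novelgene2087, and those lower in both were Lsat_1_v5_gn_1_2461, Lsat_1_v5_gn_1_65480, Lsat_1_v5_gn_1_77780, Lsat_1_v5_gn_2_68820, Lsat_1_v5_gn_5_125660 and Lsat_1_v5_gn_9_56980. Whether the calls under Cd and with melatonin differ was not tested. Lsat_1_v5_gn_1_29461, a transmembrane transport gene, rose from 0.172, 0.101 and 0.293 FPKM in LCd0 to 0.665, 1.85 and 1.27 in LCd5, and from 0.365, 0.282 and 0.273 in LCdM0 to 2.04, 1.86 and 1.89 in LCdM5, at a level far under that of roots. Of the transmembrane transport list as a whole, 15 genes were tested in leaves, and 3 rose and 1 fell from day 0 to day 5 in each treatment. Of the 12 cell redox homeostasis genes tested 0 rose, 7 fell under Cd alone and 8 with melatonin, and of the 34 metal ion transport genes 18 fell in each treatment, while 0 rose under Cd alone and 2 with melatonin. Of all genes 11.1% fell under Cd alone and 14.8% with melatonin. The lists hold genes that the study called in these same libraries, so that their counts of calls are no independent evidence. Over the 4 comparisons with day 0 in leaves, 37 of the 137 genes (27%) passed at least once, beside 29.1% of all genes.

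**Figure D5:**
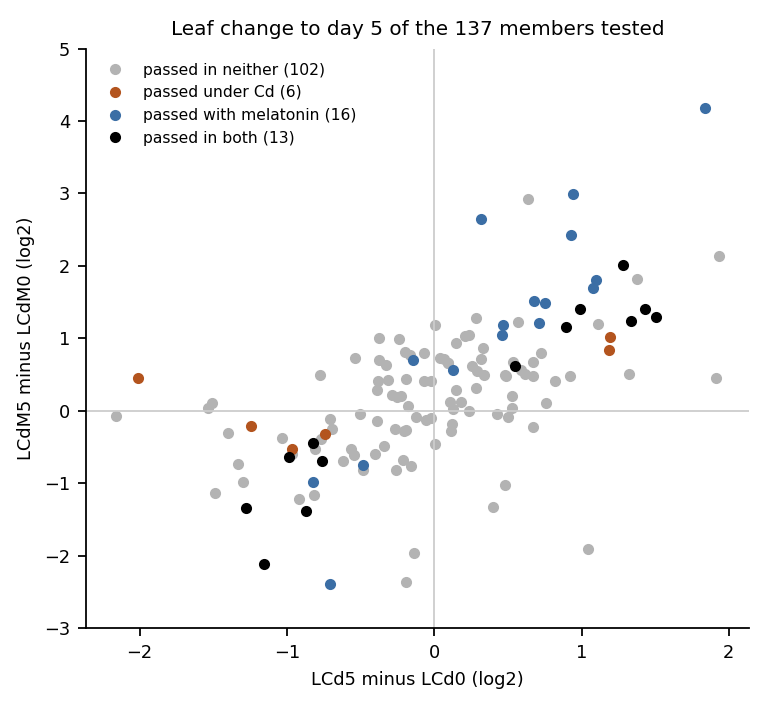
Difference of LCd5 from LCd0 (x axis) and of LCdM5 from LCdM0 (y axis) on the log2(FPKM + 1) scale for the 137 genes tested in leaves, with the genes that passed in limma under Cd alone, with melatonin or in both marked. Of the 137 genes, 102 passed in neither comparison, 6 under Cd alone, 16 with melatonin alone and 13 in both.

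Between treatments on the same day in leaves, 0 of the 137 genes passed in limma. On day 0 (LCd0 to LCdM0, 0.0238% of all genes) 18 had an unadjusted p under 0.05, 16 of them lower with melatonin, beside 5.86% of all genes, and the median difference was -0.26 over the 137 genes and 0.01 over all. The smallest adjusted p was that of Lsat_1_v5_gn_5_62060 (limma adjusted p = 0.45, log2 difference -2.11). On day 1 (LCd1 to LCdM1, 0% of all genes) 10 had an unadjusted p under 0.05, beside 4.51% of all genes, and Lsat_1_v5_gn_2_86020 came nearest with 38.0, 40.1 and 57.2 FPKM in LCd1 and 74.4, 105 and 135 in LCdM1 (limma adjusted p = 0.581). On day 5 (LCd5 to LCdM5, 0.0774% of all genes) 11 had an unadjusted p under 0.05, beside 9.11% of all genes, and Lsat_1_v5_gn_8_142961 came nearest with 22.2, 37.2 and 40.7 FPKM in LCd5 and 99.7, 85.8 and 167 in LCdM5 (limma adjusted p = 0.263).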

How the data were processed

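Roots and leaves of Italian lettuce were sequenced in 36 libraries, 3 for each of 12 groups, and groups were taken from the sample labels. For each isoform the authors deposited a value in FPKM. Per the submitters' processing notes, reads were aligned with TopHat2 2.0.12 and Bowtie2 2.0.6. The study describes counting per gene before conversion to FPKM, and the tool that made the values per isoform and any scaling between libraries are not given in the sources used here. The labels name a TruSeq library kit and the paper another, and the paper gives 3 repeats and, for its count test, fewer. All 3 libraries of a group were used. No statement on strand was found, so reads of overlapping genes and of near-identical copies cannot be told apart.

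Isoform values were summed per gene by identifier. Genes at 1 FPKM in at least 3 libraries of a tissue were kept, and log2(FPKM + 1) was tested in limma 3.58.1 under R 4.3.3 (lmFit with 1 mean per group over the 18 libraries of a tissue, contrasts.fit, eBayes with a trend, Benjamini-Hochberg over all genes of the fit, two-sided, threshold 0.05). A fold change on this scale understates the change of low genes. Tables and figures were made with pandas 2.3.3, numpy 2.4.6 and matplotlib 3.10.9 under Python 3.11.15. The method was tested on simulated data. Every p rests on the spread between libraries pooled over the groups of a tissue. Depth cannot be read from FPKM, and no counting error was computed.

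The 150 genes, the lists and the tests were chosen with earlier results of these data known. Named genes are the 12 largest scores, the 5 highest levels, up to 4 genes per list, genes with a description, up to 4 genes per direction and comparison or the smallest p, up to 4 genes with another main isoform, and the genes next to the limit of the score. Genes that are named beside these, and terms outside the 37 lists, were chosen after their values were seen. Lists come from the complete cells of the functional tables of the study, with identifiers taken and no value, and cells that are cut short were used for single names only. The columns hold no values of other samples. The RefSeq table matched 0 of the 150 genes.

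Alternatives were a scaling by median ratio, a pseudocount of 0.1, genes kept without a minimum, the compared groups fitted alone, the Q30 percentage of each library from the quality table of the study as a covariate, the replicate number as a block, each library left out in turn and, for the choice of genes, other limits and single isoforms. Libraries with the same replicate number deviated together in 1 of the 10 comparisons, LCd1 against LCdM1 (correlations of 0.32, 0.27 and 0.14), where the fit with the replicate block called 0 genes like the fit without it.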

Additional observations from a re-analysis of the deposited data

Results flagged for a closer look

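For 6 of the 150 genes every root library of a later day lay above every root library of day 0 while every leaf library of that day lay below every leaf library of day 0, with and without melatonin. These 6 are 4% of the 150 genes, and 0.418% of all genes tested show the pattern. The root side of it was set by the choice of the genes. That raises the shares of the 150 genes over those of all genes, here and in the single treatments below. The leaf side alone is a measurement apart from the choice, and the difference between the tissues was not tested. Values are leaf differences from day 0 on the log2(FPKM + 1) scale. On day 1 this held for 2 genes. Lsat_1_v5_gn_5_71661, an iron ion binding oxidoreductase, differed in leaves by -0.70 under Cd alone and -0.44 with melatonin, while its root differences were 1.64 and 0.80. Lsat_1_v5_gn_9_56980 differed in leaves by -0.92 and -0.80, and in roots by 0.95 and 0.78. On day 5 it held for 5 genes. Lsat_1_v5_gn_9_56980 differed in leaves by -0.87 under Cd alone and -1.38 with melatonin, Lsat_1_v5_gn_1_77780 by -0.99 and -0.63, and Lsat_1_v5_gn_2_68820 by -0.82 and -0.45. Lsat_1_v5_gn_5_128881, listed as an ionotropic glutamate receptor, differed by -0.96 and -0.60. Lsat_1_v5_gn_5_125660, a membrane component, differed by -1.16 and -2.11 with the later leaf groups listed at 0 in all libraries, so that these values depend on the pseudocount. In a single treatment the same pattern held for 16 genes under Cd alone on day 1 and 13 on day 5, and for 6 and 9 with melatonin, beside 2.21%, 2.25%, 0.563% and 1.53% of all genes.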

How the results depend on the processing

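Of the 150 genes, 93 were chosen again with a gap of 0.5 between day 1 and day 5, 61 with the rule applied to single isoforms, and 109 to 136 when each root library was left out in turn. Without replicate 3 of RCd5 and RCdM5, an alternative chosen after seeing the data, 96 were chosen again, 10 genes passed between RCd0 and RCdM0 (0 with all libraries) and 26 between RCd1 and RCdM1 (13). With the Q30 percentage of each library as a covariate 0 genes passed from LCd0 to LCd5 (19), LCdM0 to LCdM1 (1), LCdM0 to LCdM5 (29) and RCd1 to RCdM1 (13). Over all genes 10, 3, 13 and 1 passed in these fits, beside 2793, 43, 3846 and 1119 without the covariate. The median SE of the members tested was 0.70, 0.64, 0.66 and 0.38 with it. Without it the median SE was 0.38 in leaves and 0.33 in roots. The cause was not tested. When the compared groups were fitted alone, 2 genes passed from LCd0 to LCd1 (5), 10 from LCd0 to LCd5, 0 from LCdM0 to LCdM1 and 1 from LCd1 to LCdM1 (0). Of all genes 0.353%, 8.38%, 0.063% and 0.0252% passed in these fits. With a pseudocount of 0.1, 0 passed from LCdM0 to LCdM1 (0.22% of all genes). With the replicate number as a block, 3 genes passed from LCd0 to LCd1 (2.7% of all genes) and 7 between RCd1 and RCdM1 (3.92%). Libraries with the same number did not deviate together in either comparison, which does not settle whether the numbers pair the samples. Leaving out 1 library at a time gave 0 to 2 genes from LCd0 to LCd1, 7 to 19 from LCd0 to LCd5, 0 to 1 from LCdM0 to LCdM1, 20 to 27 from LCdM0 to LCdM5 and 0 to 20 between RCd1 and RCdM1. In the same order 0.888% to 1.83%, 8.98% to 16.8%, 0.0239% to 0.167%, 14.5% to 19.7% and 0.0116% to 10.7% of all genes passed. For the 32 tested results of named genes, 262 of 390 values under the alternatives kept their direction and their side of the threshold, 127 no longer passed, 1 passed anew and 0 reversed. The 32 include results named for the smallest p of a comparison in which none of the 150 genes passed. Those could not lose a call, so all 127 belong to results that had passed. Of 288 scores of the leading genes under the alternatives, 287 moved by less than the spread between libraries and 0 changed sign. FPKM without counts limits what can be said of genes near 1 FPKM.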
